A study of Mus musculus with 21 samples.

Results

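The genes described here are the enzymes that write, maintain and remove DNA methylation in mouse T cells. They are 8 of the 55487 genes in the count files: Tet1, Tet2, Tet3, Tdg, Dnmt1, Uhrf1, Dnmt3a and Dnmt3b. They were taken by name and not by a cut on their values, though with earlier results of these data known. RNA was sequenced from 21 libraries of sorted spleen T cells. The first group, 5 libraries here called DKO, came from mice with the genotype Tet2-/- Tet3 flx/flx CD4cre, in which Tet2 is deleted in all cells and Tet3 from the stage at which the Cd4 promoter drives Cre. DKO replicates 4 and 5 carry the label young, and no age is given for the other libraries. A group of 4 libraries, TX1, held DKO CD4 cells recovered from CD45.1+ recipients after a first transplantation, and 7 libraries, TX2, held cells that had already expanded in one recipient and were recovered from another. The 5 WT libraries came from wild type mice. WT and DKO cells were sorted as CD4+ CD25- TCRb+ cells negative for the aGalCer-CD1d tetramer, whereas TX1 and TX2 cells were sorted as CD45.2+ CD45.1- cells, so each comparison of transferred with primary cells also spans a change of gate. DKO replicate 2, TX1 replicate 3 and TX2 replicates 5 to 7 were labelled female and all other libraries male.

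TET enzymes oxidise 5-methylcytosine, using 2-oxoglutarate and iron, and TDG excises the most oxidised forms so that base excision repair restores cytosine. DNMT1 copies methylation onto the new strand behind the replication fork, where UHRF1 recognises the half-methylated site and recruits it. DNMT3A and DNMT3B set new methylation. In T cells, TET2 and TET3 are known for keeping regulatory elements of lineage genes unmethylated, and DNMT3A for silencing genes after activation.

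In the GRCm38 build (GENCODE M21), the 3 dioxygenase genes are Tet1 (ENSMUSG00000047146) at chr10:62804570-62908996 on the minus strand, Tet2 (ENSMUSG00000040943) at chr3:133463679-133545139 on the minus strand and Tet3 (ENSMUSG00000034832) at chr6:83362373-83459084 on the minus strand. The glycosylase gene is Tdg (ENSMUSG00000034674) at chr10:82629828-82650799 on the plus strand. The maintenance pair is Dnmt1 (ENSMUSG00000004099) at chr9:20907209-20959888 on the minus strand and Uhrf1 (ENSMUSG00000001228) at chr17:56303321-56323486 on the plus strand. The de novo methyltransferase genes are Dnmt3a (ENSMUSG00000020661) at chr12:3806007-3914443 on the plus strand and Dnmt3b (ENSMUSG00000027478) at chr2:153649450-153687730 on the plus strand. Reads were counted over all exons of each gene.

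Dnmt1 and Uhrf1 act at the replication fork, and replication genes are commonly bound by E2F factors, so the promoters were searched for the 8-base words TTTCCCGC, TTTCGCGC, TTTGCCGC and TTTGGCGC on both strands. Of 32851 promoter windows of 300 bases, 744 (2.265%) hold at least 1 of these words. All 8 genes had at least 1 window and some had more, so a count of genes cannot be set against that share of windows. A word was present in windows of Dnmt1 and Uhrf1 only. Both of these genes also have other annotated starts whose windows hold none. The windows below run 5′ to 3′ on the gene's strand from 250 bases before the start to 50 bases after it (RefSeq, GRCm38.p6), with the words in capitals. Tet1 is shown beside them as a member with no word. Tdg, Dnmt3a and Dnmt3b, which rose in TX2 against DKO, had no word either. The windows of Tet1, Tet2, Tet3 and Dnmt3a do not reach the 5′ end of the gene interval given above, so a start there was not searched.
Uhrf1, chr17:56304063-56304362, plus strand: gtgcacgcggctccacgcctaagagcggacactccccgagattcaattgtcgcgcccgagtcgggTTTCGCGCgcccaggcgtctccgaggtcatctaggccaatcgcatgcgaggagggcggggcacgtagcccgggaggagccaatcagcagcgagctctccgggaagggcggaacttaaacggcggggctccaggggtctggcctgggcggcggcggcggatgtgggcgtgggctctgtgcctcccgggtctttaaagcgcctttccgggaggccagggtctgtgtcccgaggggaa
Dnmt1, chr9:20952574-20952873, minus strand: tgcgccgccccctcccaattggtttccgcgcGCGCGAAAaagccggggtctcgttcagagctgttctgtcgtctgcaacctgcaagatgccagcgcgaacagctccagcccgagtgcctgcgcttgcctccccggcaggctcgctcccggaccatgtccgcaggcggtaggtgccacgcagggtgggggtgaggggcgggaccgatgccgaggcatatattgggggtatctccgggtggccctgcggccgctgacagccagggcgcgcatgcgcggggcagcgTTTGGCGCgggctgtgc
Tet1, chr10:62887275-62887574, minus strand: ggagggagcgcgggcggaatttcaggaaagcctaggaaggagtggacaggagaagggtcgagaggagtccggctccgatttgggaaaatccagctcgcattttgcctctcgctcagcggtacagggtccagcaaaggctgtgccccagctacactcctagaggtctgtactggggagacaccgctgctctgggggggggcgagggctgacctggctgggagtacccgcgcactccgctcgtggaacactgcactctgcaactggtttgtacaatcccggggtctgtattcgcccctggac
The Uhrf1 and Dnmt1 windows shown each hold 33 CpG and the Tet1 window 17, against a median of 7 over all windows. Windows with no word hold 57 in Tet2, 46, 47 and 18 in Dnmt3a, 30 in Dnmt3b, 26 in Tdg and 22 in Tet3. The other windows of Dnmt1 hold 2 and 12 CpG and that of Uhrf1 12, so CpG content does not mark the genes with a word. A match is a match of letters and was not read as binding.

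The libraries held 26918548 to 30730877 reads assigned to genes. Levels are given as CPM (counts scaled to a common library size) with TMM factors over all 21 libraries, and differences as log2 fold changes ± SE with adjusted p-values from edgeR's quasi-likelihood test over all genes tested in that comparison (called below 0.05). The T cell markers, Cd4 among them, had summed levels of 4010 to 5608 CPM in DKO and 4887 to 5055 CPM in WT. After transfer the sums were lower, at 2285 to 4006 CPM in TX1 and 1945 to 3296 CPM in TX2. TX1 replicate 1 held the 4006 CPM, close to DKO, and the other TX1 libraries 2285 to 2590 CPM. The part of this sum in the results was not tested. Cd4 was nearly absent from TX2: it ranged from 0.63 to 2.26 CPM in TX2 and from 0.14 to 1003 CPM (median 13.8) in TX1, against 1070 to 1813 CPM in DKO and 1448 to 1529 CPM in WT. One T cell receptor alpha sequence made up at least 50% of the receptor alpha reads in all 11 transferred libraries and in DKO replicate 2. TX2 replicates 5 to 7 shared theirs with TX1 replicate 3 (clone A, 83.2 to 88.1% of reads), TX2 replicates 1 to 4 shared another (clone B, 95.1 to 95.7%), and the remaining TX1 libraries each had their own. The 7 TX2 libraries therefore hold 2 clones, and p-values measure the spread between libraries that are not all independent.

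Tet3 fell in primary DKO cells and stayed below WT after both transfers. It stood at 105, 90.2, 98.4, 91.8 and 86.3 CPM in DKO, at 81.9, 87.1, 91.9 and 74.5 CPM in TX1, at 56.9 to 89.5 CPM (median 75.6) in TX2, and at 206, 187, 217, 172 and 195 CPM in WT. Every library with the deletion lay below every WT library. The log2 fold change was -1.05 ± 0.09 in DKO against WT (adjusted p = 1.9e-05), -1.21 ± 0.12 in TX1 against WT (4.42e-05) and -1.45 ± 0.12 in TX2 against WT (5.46e-07). TX2 also lay below DKO by -0.40 ± 0.12 (0.0140), although the groups overlapped, and that call was lost when the libraries of each clone were summed (-0.36, 0.0731).

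Tet2 gave reads in every library of its knockout. It stood at 53.3, 54.2, 45.8, 44.3 and 39.0 CPM in DKO and at 35.7, 36.2, 54.3, 40.8 and 49.3 CPM in WT, so that the groups overlapped (0.12 ± 0.14, adjusted p = 0.501). The counts cover all exons of the gene, and the labels do not name the exons missing from the Tet2 and Tet3 alleles, so a level near WT does not check the deletion. After transfer, TX1 had 66.9, 35.0, 30.1 and 29.5 CPM and TX2 14.4 to 29.96 CPM (median 23.1). Tet2 fell in TX2 against DKO (-1.04 ± 0.16, adjusted p = 0.000201) and against WT (-0.92 ± 0.17, 0.000484), with no overlap in either. TX1 overlapped DKO (-0.21 ± 0.25, 0.594), with replicate 1 above every other library of the series. Without that library the TX1 change against DKO was -0.58 (0.0106).

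Tet1, the only TET gene that was not targeted, fell most. It stood at 10.4, 3.53, 11.3, 9.45 and 7.09 CPM in DKO, against 30.5, 31.1, 41.0, 26.8 and 45.4 CPM in WT, with no overlap (-2.07 ± 0.28, adjusted p = 0.000268). The lowest DKO library, replicate 2, is the one with a dominant clone, the one labelled female and the one with the most B cell marker RNA of its group (117 CPM). TX1 had 0.44, 0.18, 0.78 and 10.6 CPM, from 13, 5, 23 and 313 reads, and TX2 had 0.29 to 1.79 CPM (median 1.13). Against DKO the fall in TX2 was -2.92 ± 0.46 (0.000302), with no overlap. TX1 split into 3 libraries below every DKO library and 1, replicate 4 (clone F), inside the DKO range, and the change was -1.49 ± 1.06 (0.357); without replicate 4 it was -4.14 (0.0148). In TX2 against TX1 the sign depended on that library as well, at -1.40 with it and 1.24 without it, with no call in either.

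**Figure D1:**
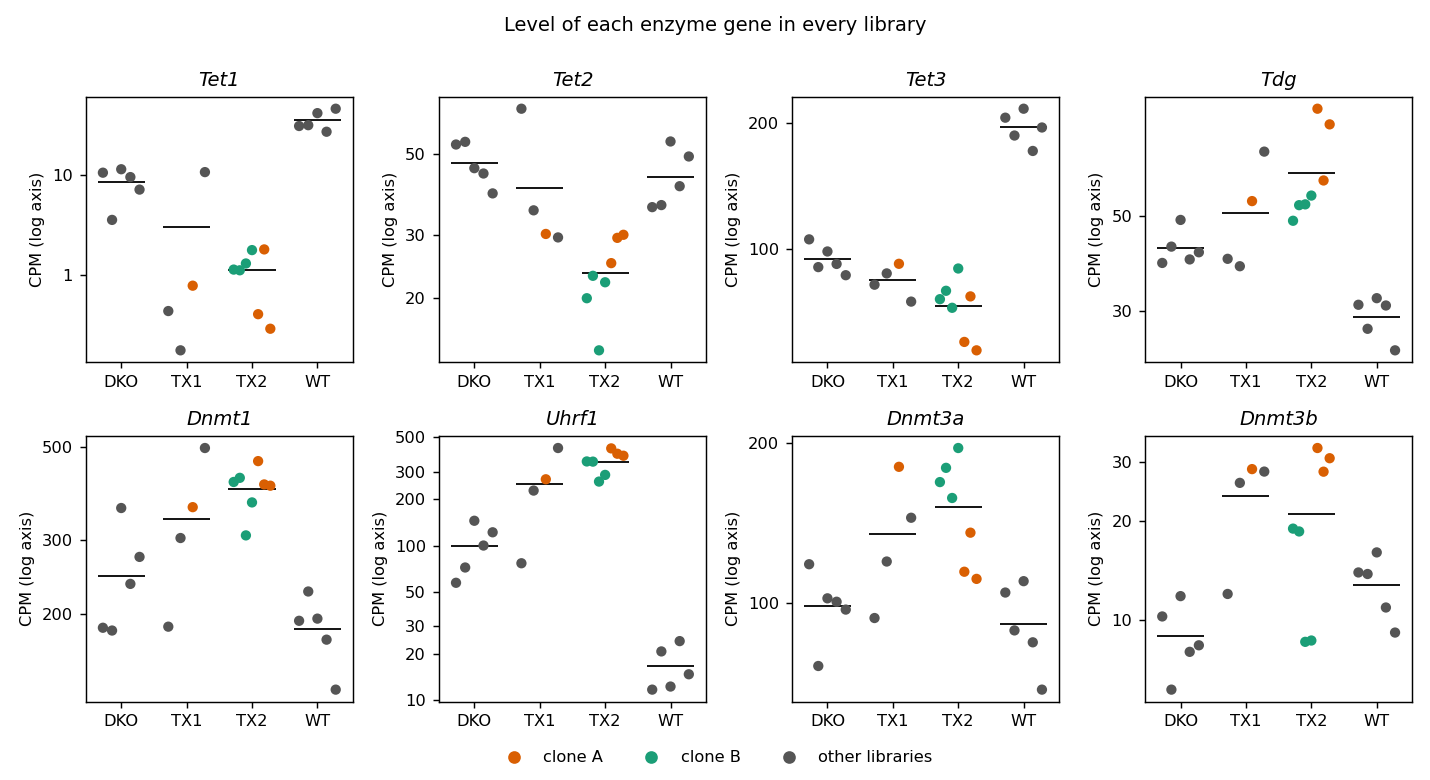
Level of the 8 enzyme genes in CPM on log axes, one point a library in DKO, TX1, TX2 and WT, with a bar at each group's mean; orange and green points are clones A and B. Tet3 and Tet1 of every DKO library lie below every WT library, Uhrf1 of every DKO, TX1 and TX2 library lies above every WT library, and Dnmt3a, Dnmt3b, Tdg, Tet2 and Uhrf1 each separate the clones within TX2.

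Per length of exon, which allows genes to be compared, Tet3 was the most abundant TET transcript in every library. The summed level of the 3 TET genes was 9.00 ± 0.81 CPM per kb in DKO (SD, n = 5), 7.61 ± 0.88 in TX1 (n = 4), 5.82 ± 0.67 in TX2 (n = 7) and 16.5 ± 1.8 in WT (n = 5). Tet3 made up 61.1 to 65.1% of the sum in DKO, 55.1 to 75.0% in TX1, 65.5 to 82.2% in TX2 and 66.6 to 75.1% in WT. Tet1 made up 2.58 to 7.84% in DKO, 0.156 to 9.93% in TX1, 0.360 to 1.80% in TX2 and 12 to 16.7% in WT. The sum counts all Tet2 and Tet3 transcripts, including those of the deleted alleles. Tet3, which the genotype targets, had a mean of 5.65 CPM per kb in DKO and 11.7 in WT.

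**Figure D2:**
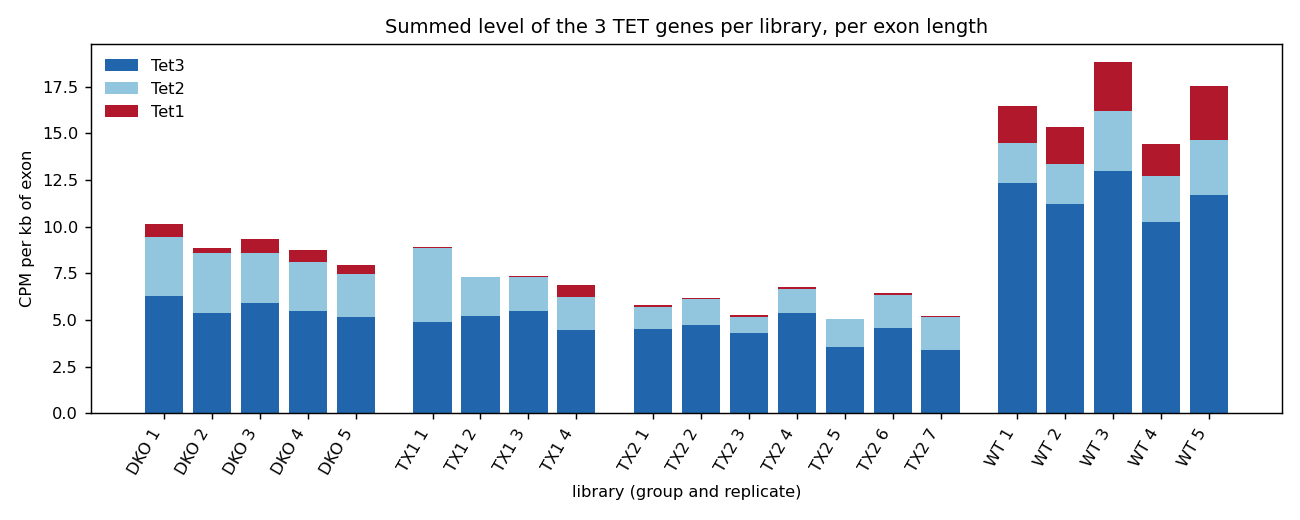
Summed level of Tet3, Tet2 and Tet1 in CPM per kb of exon (y axis), one stacked bar a library in DKO, TX1, TX2 and WT. The bars reach 7.94 to 10.1 in DKO, 6.90 to 8.90 in TX1, 5.08 to 6.79 in TX2 and 14.4 to 18.9 in WT, and the Tet1 portion is nearly gone in TX1 replicates 1 to 3 and in TX2.

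Tdg, the glycosylase that acts after the TETs, moved the other way. It stood at 38.9, 42.5, 49.0, 39.6 and 41.2 CPM in DKO, against 31.1, 27.3, 32.2, 31.0 and 24.3 CPM in WT, with no overlap (0.53 ± 0.10, adjusted p = 0.00181). TX1 had 39.8, 38.2, 54.2 and 70.7 CPM and TX2 48.8 to 89.0 CPM (median 55.8). TX2 lay above DKO by 0.55 ± 0.15 (0.00786) with 1 DKO library inside the TX2 range, and TX1 against DKO was 0.27 ± 0.18 (0.323). Tdg was called above WT in TX1 (0.81 ± 0.20, 0.00718) and TX2 (1.08 ± 0.16, 5.95e-05).

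Uhrf1 rose most of the 8 genes. It stood at 57.4, 72.1, 145, 100 and 122 CPM in DKO, against 11.7, 20.7, 12.3, 24.1 and 14.7 CPM in WT, with no overlap (2.57 ± 0.29, adjusted p = 9.53e-05). TX1 had 76.8, 227, 268 and 427 CPM and TX2 259 to 425 CPM (median 349.6). TX2 rose above DKO with no overlap (1.79 ± 0.22, 5.8e-05) and above WT by 4.35 ± 0.22 (1.41e-08). In TX1, replicate 1 lay within the DKO range and the other 3 libraries above it; the change of 1.33 ± 0.45 missed the threshold (0.0658), and without replicate 1 it was 1.63 (0.00626).

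Dnmt1 changed less than its recruiter. It stood at 186, 183, 358, 236 and 274 CPM in DKO and at 193, 227, 195, 174 and 133 CPM in WT, with overlap (0.42 ± 0.20, adjusted p = 0.101). TX1 had 187, 304, 359 and 496 CPM and TX2 308 to 462 CPM (median 406.6). Dnmt1 was called in TX2 against DKO (0.66 ± 0.16, 0.00484), where DKO replicate 3 lay inside the TX2 range, and in TX2 against WT (1.08 ± 0.13, 1.06e-05), with no overlap. The log2 ratio of Uhrf1 to Dnmt1 was -1.70 to -1.17 in DKO, -1.28 to -0.22 in TX1, -0.37 to -0.05 in TX2 and -4.05 to -2.85 in WT, so the WT libraries lay below all others.

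Both genes act at the replication fork, so a list of 20 replication genes was read beside them. In DKO against WT, 19 of the 20 were higher and none lower (22.7% of all genes were higher; median log2 fold change 1.82, against -0.01 over all genes tested), led by Mcm10, a fork assembly factor, at 3.10 ± 0.35, and Mki67, the proliferation antigen, at 2.79 ± 0.27. In TX2 against DKO, 17 were higher and 1 lower (25.6% and 26.1% of all genes; median 1.05, against -0.01). The summed level of the list was 1762 to 3656 CPM in DKO, 2080 to 5679 in TX1, 3878 to 5666 in TX2 and 800 to 995 in WT. TX1 replicate 1, low in Uhrf1, had the lowest sum of its group, and replicate 4, with the most Uhrf1, had the highest.

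Set against the summed list, Uhrf1 and Dnmt1 ran in opposite directions. The log2 ratio of Uhrf1 to the list was -4.94 to -4.62 in DKO, -4.76 to -3.73 in TX1, -3.90 to -3.64 in TX2 and -6.10 to -5.37 in WT, so that Uhrf1, which is not on the list, stood higher relative to the sum in the deleted groups than in WT. That of Dnmt1 was -3.46 to -3.24 in DKO, -3.52 to -3.38 in TX1, -3.77 to -3.51 in TX2 and -2.59 to -2.03 in WT. The ranges of DKO and WT do not overlap for Uhrf1 or Dnmt1. The ratio of Tdg fell as well, to -6.22 to -5.46 in DKO from -5.08 to -4.655 in WT. Abundant genes weigh most in the sum. In DKO against WT Uhrf1 rose by 2.57, against a median of 1.82 over the list, while its genes Mcm10, Mki67 and Rrm2 rose by 3.10, 2.79 and 2.73. How much of the level of Uhrf1, Dnmt1 or Tdg moves with the share of dividing cells was not tested, and in bulk libraries more dividing cells and more RNA per cell cannot be told apart.

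**Figure D3:**
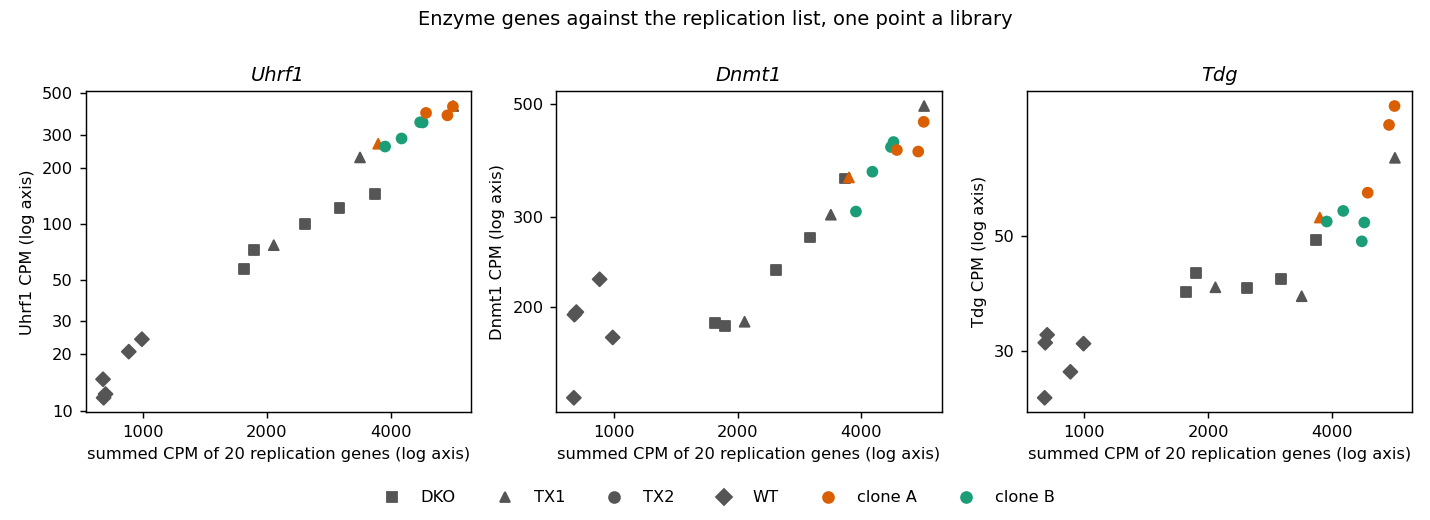
Uhrf1, Dnmt1 and Tdg in CPM (y axes) against the summed CPM of 20 replication genes (x axes), all on log axes, one point a library; squares are DKO, triangles TX1, circles TX2 and diamonds WT. The WT libraries sit at 800 to 995 on the x axis in each panel, where their Dnmt1 (133 to 227 CPM) overlaps that of DKO while their Uhrf1 (11.7 to 24.1 CPM) does not.

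Dnmt3a was near its WT level in primary DKO cells. It stood at 118, 75.9, 102, 100.4 and 97.03 CPM in DKO and at 104.5, 88.6, 109.8, 84.2 and 68.5 CPM in WT (0.12 ± 0.14, adjusted p = 0.538). TX1 had 93.5, 120, 181 and 145 CPM and TX2 111 to 196 CPM (median 158). The change in TX2 was 0.60 ± 0.17 against DKO (0.0109), where the groups overlapped, and 0.71 ± 0.17 against WT (0.00278), where they did not. In TX1 against DKO it was 0.46 ± 0.20 (0.133), and 0.59 (0.0276) without TX1 replicate 1.

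Dnmt3b was the one member called in TX1 against DKO. It stood at 10.2, 6.15, 11.8, 7.999 and 8.37 CPM in DKO and at 13.9, 13.8, 16.0, 10.9 and 9.15 CPM in WT (-0.52 ± 0.20, adjusted p = 0.0573). TX1 had 11.98, 26.0, 28.6 and 28.1 CPM, all above the DKO libraries, though replicate 1 by little (1.42 ± 0.28, 0.0127). TX2 ran from 8.58 to 33.2 CPM (median 18.9) and overlapped DKO (1.20 ± 0.35, 0.0134). Without the 2 young DKO libraries the log2 fold changes were close to these and missed the threshold (1.34, 0.112 in TX1 and 1.13, 0.0800 in TX2). The TX1 change also missed it among replicates 1 to 3 of both groups (1.25, 0.201) and the TX2 change against DKO replicates 4 and 5 alone (1.31, 0.108); each of these fits has fewer libraries.

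Ordered by mean from low to high, Tet1 and Tet3 ran TX2, TX1, DKO, WT, and Tdg, Dnmt1, Uhrf1 and Dnmt3a ran WT, DKO, TX1, TX2. In those orders DKO and WT were told apart for Tet1, Tet3, Tdg and Uhrf1, and no gene separated TX1 from its neighbours DKO and TX2. Tet2 ran TX2, TX1, WT, DKO and Dnmt3b DKO, WT, TX2, TX1, with no neighbours told apart in either.

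Counted over the 8 genes, DKO against WT called 4, where 43.4% of the 13700 genes tested were called. Higher were 2, Uhrf1 and Tdg (22.7% of all genes), and lower were 2, Tet1 and Tet3 (20.7%). Tet2 and Tet3 are targeted by the genotype, so their calls against WT, here and after transfer, are not independent of the design. TX1 against DKO called 1 of 8, beside 19.7% of all genes tested, a background that was 0 genes among replicates 1 to 3 of both groups (2595 at an unadjusted p below 0.05) and 3 genes without the young DKO libraries. TX2 against DKO called all 8, beside 51.7%, with 5 higher, Tdg and the 4 methylation genes (25.6%), and 3 lower, the TET genes (26.1%). The share in DKO against WT is thus near the background, and the share in TX1 against DKO is not above it. Tet1, Tet2 and Uhrf1 kept their calls in TX2 against DKO in all alternatives run, whereas each of the other 5 lost its call in at least 1. In DKO against WT, Tdg missed the threshold among replicates 4 and 5 of both groups (0.56, adjusted p = 0.0702). Dnmt3b was called lower without WT replicate 5 or DKO replicate 3 (0.0255 and 0.0342) and by DESeq2 (-0.51, 0.0473). Dnmt1 was called higher among replicates 4 and 5 (0.75, 0.0356), with sex as a covariate (0.52, 0.0467) and without DKO replicate 2 (0.0494).

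Between the transfers, TX2 against TX1 called none of the 8 by edgeR or by DESeq2, beside 0.0431% of all genes tested by edgeR. At an unadjusted p below 0.05 edgeR had 1, Tet2, at -0.81 ± 0.27 (adjusted p = 0.132). Both transferred groups are compared with the same WT and DKO libraries. Against WT, TX1 called 7 of 8, all but Tet2, beside 48.1%, and TX2 called 7, all but Dnmt3b (0.68 ± 0.34, 0.0934), beside 66.2%. In TX1 against WT the call was lost for Tet1 without the filter on low counts (0.0729) and for Tet1, Dnmt3a and Dnmt3b without TX1 replicate 3 (0.0519, 0.132 and 0.0565), and for Dnmt1, Dnmt3a and Dnmt3b without TX1 replicate 4 (0.0517, 0.0862 and 0.0512). Dnmt3a lost it as well without WT replicate 2, 4 or 5 (0.0723 to 0.0783), and Tet2 was called lower without TX1 replicate 1 (-0.44, 0.0484). In TX2 against WT all 7 kept their calls in each alternative run, and Dnmt3b was called higher without TX2 replicate 3 or 4 (0.0308 and 0.0289).

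**Figure D4:**
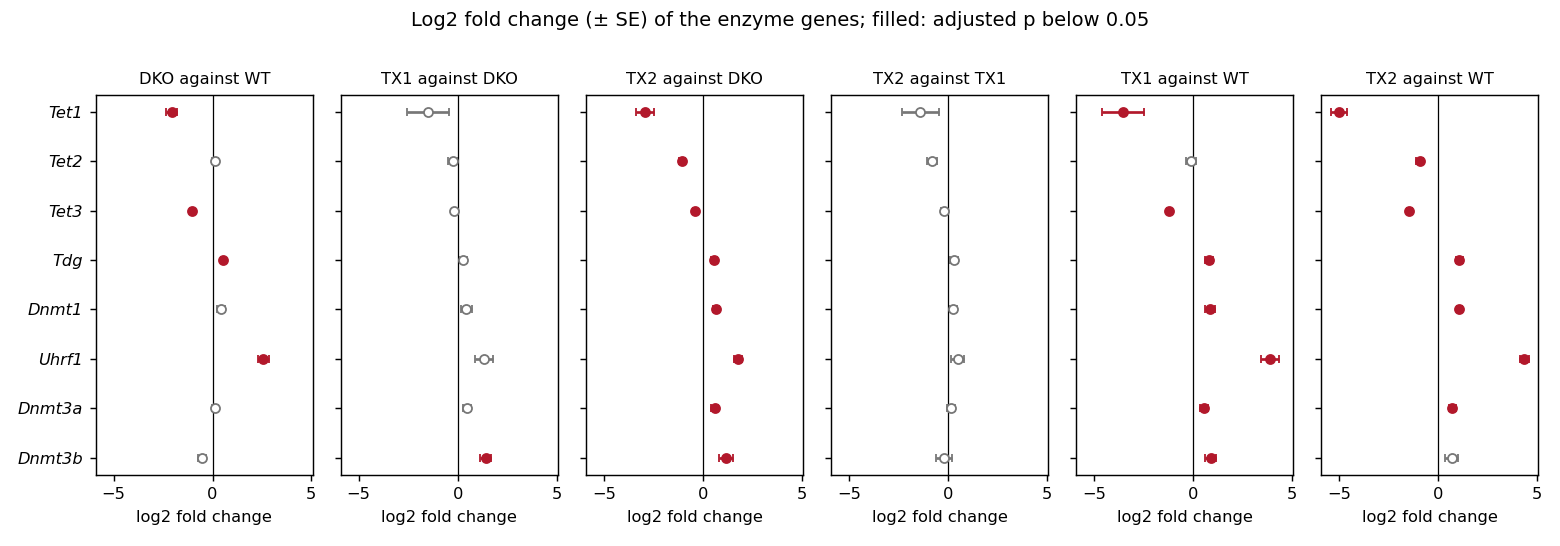
Log2 fold change (x axis) ± SE of the 8 genes (y axis) in 6 comparisons, filled red where the adjusted p is below 0.05. TX2 against DKO has 8 filled points and TX2 against TX1 none; in TX1 the Tet1 error bar is wide, with an SE of 1.06 in TX1 against DKO.

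The 2 clones of TX2 differed from each other in the de novo enzymes. In clone B Dnmt3a had 169, 180, 158 and 196 CPM, against 114, 136 and 111 CPM in clone A, with no overlap (0.57 ± 0.11, adjusted p = 0.0041). Dnmt3b ran the opposite way, at 18.9, 18.5, 8.58 and 8.66 CPM in clone B against 33.2, 28.1 and 30.9 CPM in clone A (-1.15 ± 0.30, 0.0173). Within clone B, replicates 1 and 2 had about the same Dnmt3b level and replicates 3 and 4 a lower one.

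Clone B was also called lower than clone A in Tdg (-0.52 ± 0.13, adjusted p = 0.0132), Tet2 (-0.48 ± 0.16, 0.0440) and Uhrf1 (-0.33 ± 0.11, 0.0388), with no overlap in any of them. That makes 5 of 8 called, beside 44.6% of all genes tested. Dnmt3a kept its call when any 1 library was left out, but the number fell to 1 without TX2 replicate 5 and to 3 without replicate 3, 4 or 7. Tet2 lost its call without any one of replicates 1 and 3 to 7 (adjusted p = 0.0509 to 0.130), Uhrf1 without any one of replicates 3 to 7 (0.0630 to 0.122), and Tdg and Dnmt3b without replicate 5 (0.0530 and 0.0520). Without replicate 6, Tet1 and Tet3 were called higher in clone B (1.96, 0.00718, and 0.48, 0.0074). Clone A then rested on 12 and 9 reads of Tet1, whereas replicate 6 had 57 (1.79 CPM), the highest Tet1 of TX2. Its Tet3 (76.7 CPM) lay inside the clone B range (72.0 to 89.5 CPM). The clones differ in labelled sex, and the clone A libraries held more RNA of other blood cells and a lower sum of T cell markers (2955 to 3296 CPM in clone B and 1945 to 2155 CPM in clone A). The 6 B cell markers summed to 0.90 to 1.47 CPM in clone B and 55.4 to 153 CPM in clone A, and the 6 macrophage markers to 6.19 to 20.9 CPM in clone B and 51.5 to 91.9 CPM in clone A. The 6 neutrophil markers summed to 0 to 0.50 CPM in clone B and 40.8 to 104 CPM in clone A, and the erythroid markers to 0.27 to 9.66 CPM in clone B and 17.4 to 578 CPM in clone A. Their part in the differences between clones was not tested.

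Clone A was recovered after both transfers, once in TX1 and in 3 TX2 libraries, which allows values but no test. Dnmt3a was 111 to 136 CPM after the second transfer and 181 CPM after the first. Uhrf1 was 381 to 425 CPM after the second and 268 CPM after the first. Tdg was 60.6 to 89.0 CPM after the second and 54.2 CPM after the first, and Tet3 56.9 to 76.7 CPM after the second and 91.9 CPM after the first. Dnmt3b stood at 28.1 to 33.2 CPM after the second and at 28.6 CPM after the first, inside that range, and Tet2 at 25.0 to 29.96 CPM after the second and 30.1 CPM after the first. The TX1 library of this clone had only 0.71 CPM of B cell markers.

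Other genes of the pathway were read in 4 lists. Beside their counts, DKO against WT called 22.7% of all genes higher and 20.7% lower, and TX2 against DKO 25.6% higher and 26.1% lower. Of the 12 cofactors of maintenance and de novo methylation, 9 were tested in DKO against WT, 6 were higher and 1 lower (median 0.62, against -0.01 over all genes). Lig1, the replicative DNA ligase, rose by 2.14 ± 0.25 (adjusted p = 0.000116) and Hells, a remodeller needed to methylate compact chromatin, by 1.88 ± 0.24 (0.000195). Cdca7, the partner of HELLS, had 29.9 to 64.3 CPM in DKO (median 44.0), 73.7, 223, 176 and 208 CPM in TX1, 98.5 to 196.5 CPM in TX2 (median 189) and 15.9 to 18.9 CPM in WT (median 16.3). It rose in DKO against WT (1.38 ± 0.18, 0.000219) and again in TX1 against DKO (1.96 ± 0.33, 0.00859), with no overlap in either. The TX1 calls of Cdca7 and of Cxxc5 and Idh2, given further on, were lost among replicates 1 to 3 of both groups, where no gene was called by edgeR (2595 at an unadjusted p below 0.05).

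Some readers of methylated DNA fell. In DKO against WT, 4 of 8 were lower and none higher (median -0.31, against -0.01), and in TX2 against DKO 5 were lower and 2 higher (median -0.33, against -0.01). Zbtb38, a zinc finger protein that binds methylated CpG, had 17.9 to 32.2 CPM in DKO, 25.2, 0.64, 2.81 and 4.16 CPM in TX1, 0.74 to 1.97 CPM in TX2 and 41.3 to 59.1 CPM in WT. The change was -1.12 ± 0.17 in DKO against WT (adjusted p = 0.000443) and -4.31 ± 0.28 in TX2 against DKO (1.28e-06). Its relative Zbtb4 had 62.0 to 115 CPM in DKO, 108, 17.9, 13.8 and 5.92 CPM in TX1, 4.46 to 16.6 CPM in TX2 and 112 to 141 CPM in WT (TX2 against DKO, -2.84 ± 0.31, 2.7e-05). In both genes TX1 replicate 1 stayed with the DKO libraries and the other 3 TX1 libraries lay far below.

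Among 20 partners of the TETs and repair genes, 8 of 19 tested were higher in DKO against WT and 1 lower (median 0.38, against -0.01), 9 called in all, a share near the 43.4% of all genes, and in TX2 against DKO 6 of 18 were higher and 6 lower (median -0.06, against -0.01). Cxxc5, which binds unmethylated CpG and is known to bind TET2, had 20.6 to 46.7 CPM in DKO, 55.9, 90.7, 101 and 80.8 CPM in TX1, 65.4 to 561 CPM in TX2 and 4.31 to 7.98 CPM in WT. It rose in DKO against WT (2.51 ± 0.24, adjusted p = 4.28e-05) and in TX1 against DKO (1.33 ± 0.25, 0.0102). Within TX2 it stood at 345, 357, 550 and 561 CPM in clone B, against 68.5, 88.5 and 65.4 CPM in clone A (2.64 ± 0.25, 0.000298). Clone B thus had the highest levels of the series, and replicates 3 and 4, the pair low in Dnmt3b, the highest of clone B.

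Of 16 genes that supply cofactors, 15 were tested in DKO against WT, 4 were higher and 3 lower (median -0.24, against -0.01), 7 called in all, which is also near 43.4%. In TX2 against DKO 6 of 16 were higher and 4 lower (25.6% and 26.1% of all genes; median 0.16, against -0.01). Idh2, a mitochondrial enzyme that makes 2-oxoglutarate, a cosubstrate of the TETs, had 47.8, 26.8, 47.9, 34.5 and 34.7 CPM in DKO, 18.0, 23.2, 9.15 and 19.4 CPM in TX1, 2.05 to 9.33 CPM in TX2 (median 6.80) and 86.6, 71.4, 81.6, 67.3 and 38.4 CPM in WT. It fell in DKO against WT (-0.85 ± 0.22, adjusted p = 0.0092), in TX1 against DKO (-1.13 ± 0.29, 0.0265) and in TX2 against DKO (-2.73 ± 0.35, 7.7e-05). Idh3a, of the same list, ran the other way, with means of 95.4 CPM in DKO, 126.5 in TX1, 141.5 in TX2 and 61.6 in WT. Its change in TX2 against WT was 1.17 ± 0.10 (5.9e-07). Whether the supply of 2-oxoglutarate changed was not tested. Mat2a, which makes the methyl donor S-adenosylmethionine, rose in TX2 against DKO (0.93 ± 0.08, 6.32e-06).

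**Figure D5:**
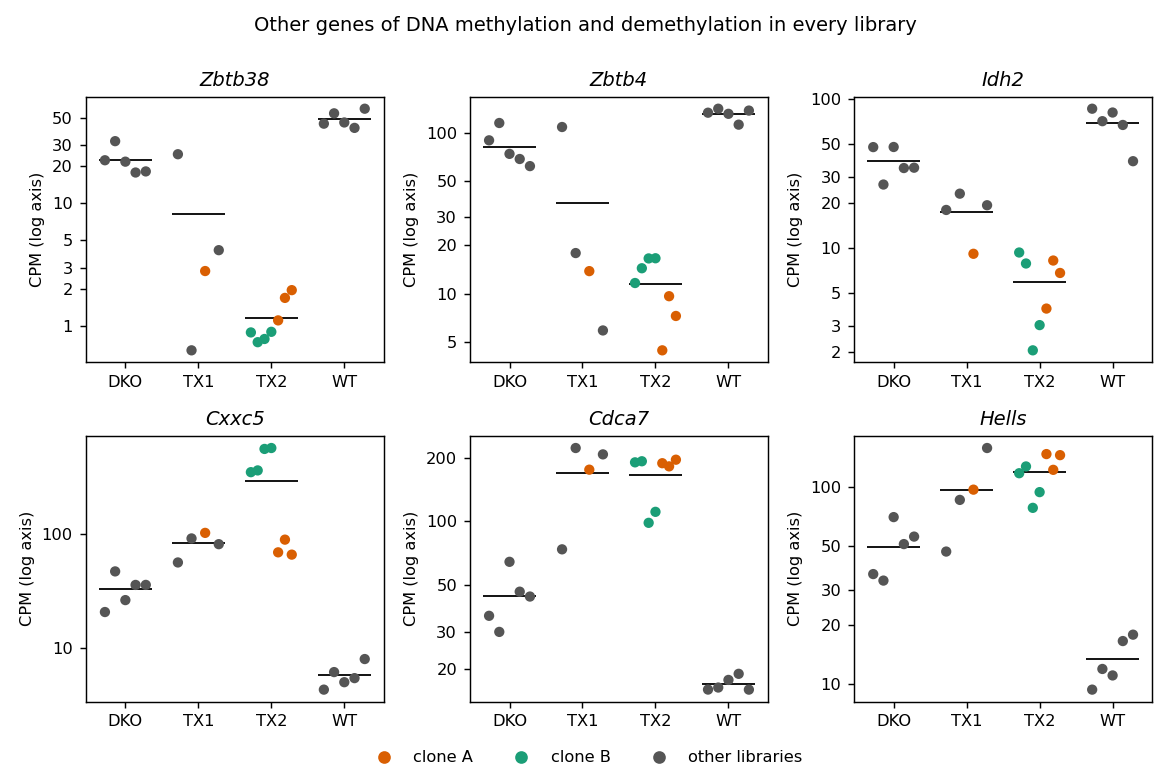
Level of 6 other genes of the pathway in CPM on log axes, one point a library in DKO, TX1, TX2 and WT, with a bar at each group's mean; orange and green points are clones A and B. Zbtb38, Zbtb4 and Idh2 are lower in TX2 than in WT, Cdca7 and Hells are higher, and Cxxc5 separates clone B (345 to 561 CPM) from clone A (65.4 to 88.5 CPM).

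The genes whose levels ran most like each member were found by Pearson's r of log2(CPM + 1) over the 21 libraries, among genes with a mean of at least 5 CPM. The libraries share genotype and clones, so r is a description. Uhrf1 ran with Mcm5 (r = 0.994) and Mms22l (0.991), and Dnmt1 with Gins4 (0.949), Dctpp1 (0.948) and Chtf18 (0.946). Tet1 ran with Hp1bp3 (0.959), St8sia6 (0.958) and Vipr1 (0.955), Tet2 with Arid5b (0.938), Aftph (0.938) and 5830428M24Rik (0.930), and Tet3 with Dop1a (0.968), Hmbox1 (0.962) and Itga6 (0.962). Tdg ran with Atp5b (0.977), Uba2 (0.967) and Erh (0.966), Dnmt3a with Klhl22 (0.934), Nit2 (0.913) and Adcy3 (0.912), and Dnmt3b with Nol9 (0.964), Dph2 (0.958) and Nop14 (0.951). The highest r of the Dnmt3a and Tet2 neighbours was lower than that of each other member.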

How the data were processed

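Bulk RNA-seq was deposited for 21 libraries. Per the submitters' processing notes the tools named are fastp 0.21.0, STAR 2.7.5a and DESeq2, with mm10 and GRCm38 as builds. The authors deposited unnormalized read counts per gene, and the unstranded column was used, since the larger strand held a median share of 0.5068 of stranded reads. Counts ignore strand. The genes examined that overlap or copy Dnmt3a, Dnmt3b, Tdg, Tet2 or Tet3 held at most 60 reads in any library. Such genes were not examined for Tet1, Dnmt1 and Uhrf1. Of 55487 gene IDs, 55141 matched the GENCODE M21 annotation. Summary lines (unmapped, multimapping and unassigned reads, 16.75 to 23.39% of reads) were left out. Deposited receptor clonotype counts named the clones, by the alpha sequence with at least 50% of reads.

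Genes were filtered (filterByExpr), scaled (TMM) and tested for each pair of groups with edgeR 4.0.16 (R 4.3.3). P-values had Benjamini-Hochberg adjustment, with calls below 0.05. The steps were also run on simulated data whose libraries were drawn independently. That setting has no shared clones, so it cannot check the calls among clonal libraries. SE is the log2 fold change divided by the square root of F. DESeq2 1.42.0, other scaling, no filter, sex, the replicate number, subsets of libraries, summed clones and leaving out each library were alternatives. Replicate numbers were not taken as pairs, since no label says that they share a mouse or day. No libraries were duplicates (lowest chi-square per gene between replicates 6.502). Nothing states that the replicates are separate mice, so p-values measure the spread between libraries. All 8 members are described in each comparison; from each list, up to 4 called genes with a mean of at least 5 CPM may be named, those with the largest changes first. The members and lists were chosen with earlier results of these data known. The promoter sequences are from RefSeq (GRCm38.p6). Python 3.11.15 and matplotlib 3.10.9 drew the plots. Items withheld from this text are not reported here.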

Additional observations from a re-analysis of the deposited data

Results flagged for a closer look

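Each of the 8 genes was examined for a lone library in each of the 4 groups, 32 groups of values in all, of which chance alone would mark about 1 in 20, and 3 were marked, all in TX1. Tet1 stood at 10.59 CPM in TX1 replicate 4, against 0.176 to 0.779 CPM in the other 3 libraries. Tet2 stood at 66.89 CPM in TX1 replicate 1, against 29.5 to 35.0 CPM in the others. Dnmt3b stood at 11.98 CPM in TX1 replicate 1, against 26.0 to 28.6 CPM in the others. Replicate 1 also had the lowest Uhrf1 (76.8 CPM), the lowest replication list (2080 CPM) and the highest Zbtb38 (25.2 CPM) of the TX1 libraries, with a B cell marker sum of 62.2 CPM against 0.247 to 0.712 CPM in the others. Its T cell markers summed to 4006 CPM, against 2285 to 2590 CPM in the others. The 4 TX1 libraries hold 4 different clones.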

How the results depend on the processing

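Counts of the 8 genes called are given first. TX1 against DKO (1 called) had 2 with DESeq2, 0 among replicates 1 to 3 (2 at an unadjusted p below 0.05), 0 without the young DKO libraries (2 at an unadjusted p below 0.05) and 7 among the other libraries (replicates 4 and 5 of WT and DKO, TX1 replicate 4 and all TX2), where TX1 replicate 4 alone stood for its group and was assumed to vary like DKO. TX2 against DKO (8) had 4 among the other libraries, 5 with the libraries of each clone summed and 5 without the young DKO libraries. TX1 against WT (7) had 4 with sex as a covariate and 4 among replicates 1 to 3. TX2 clones (5) had 3 with no filter. Leaving out 1 library in turn gave 1 to 4 in TX1 against DKO, 4 to 8 in TX1 against WT and 1 to 5 between the TX2 clones. Over all genes, TX1 against DKO (2743 called) ranged most: 4118 with DESeq2, 0 among replicates 1 to 3 (2595 at an unadjusted p below 0.05), 3 without young DKO, 8962 among the other libraries and 1326 to 5399 leaving out 1 library. TX2 against TX1 (6) had 1416 with DESeq2, 13 with no filter, 664 with sex, 0 with clones summed (589 at an unadjusted p below 0.05) and 0 to 1318 leaving out 1 library (2043 to 2703 at an unadjusted p below 0.05 where it was 0), the highest without TX1 replicate 4. DKO against WT (5951) had 3829 and 3217 within the 2 subsets, and TX2 against DKO (7255) had 4334 among the other libraries and 4555 with clones summed. These subsets differ in multimapping reads (6.58 to 7.80% and 7.68 to 10.02%), and the young DKO libraries are all in the second.

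Signs that turned, none of them called: Dnmt3a in DKO against WT, -0.030 among replicates 1 to 3; among the other libraries Tet2 in DKO against WT (-0.10), Tet1 in TX1 against DKO (0.35) and, in TX2 against TX1, Tet3 (0.017), Tdg (-0.12), Dnmt1 (-0.27) and Uhrf1 (-0.25). Tet2 in TX1 against WT was 0.024 with sex, 0.090 among replicates 1 to 3 and -0.44 to 0.037 leaving out 1 library. The -0.44, without TX1 replicate 1, kept the sign of the main fit and was called (adjusted p = 0.0484). Tet1 in TX2 against TX1 was -1.76 to 1.24 leaving out 1 library. The cause was not tested.

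With the replicate number as a block, TX1 against DKO called 0 of the 8 (3 at an unadjusted p below 0.05; 89 of all genes), TX1 against WT 4 and TX2 against TX1 486 of all genes, Tet1 in TX2 against TX1 was 0.57, and Dnmt3b in DKO against WT was called lower (-0.52, adjusted p = 0.042). Same-numbered libraries did not deviate together in all pairs (correlations of -0.07 to 0.40 in TX1 against DKO, 1 of 4 over 0.1, and 0.01 to 0.43 in DKO against WT, 4 of 5 over 0.1), and at most 2 pairs in any comparison correlated best with their own number, so the numbers were not taken as pairs.

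Low reads limit Tet1 in the transferred cells, with 5 to 57 reads in all but TX1 replicate 4.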

Other observations

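Within the list of TET partners and repair genes, Gadd45b and Gadd45g, stress-induced adaptors linked to active demethylation, rose in DKO against WT and fell in TX2 against DKO. Gadd45a, of the same family, had 4.59 to 8.83 CPM in DKO, 4.59 to 11.99 CPM in TX2 and 6.11 to 11.8 CPM in WT, with overlap. Gadd45b had 21.96 to 68.3 CPM in DKO, 4.84 to 35.0 CPM in TX1, 4.83 to 13.3 CPM in TX2 and 8.24 to 14.5 CPM in WT, and changed by 1.85 ± 0.28 in DKO against WT (adjusted p = 0.000431) and by -2.40 ± 0.29 in TX2 against DKO (5.1e-05). Gadd45g changed by 2.38 ± 0.42 (0.00118) and -1.10 ± 0.16 (0.000141) in the same comparisons. Neil3, a glycosylase of dividing cells, had 5.74 to 19.5 CPM in DKO against 1.07 to 2.67 CPM in WT (2.79 ± 0.40, 0.000347). Neutrophil markers summed to 3.83 to 172 CPM in DKO, with the highest sums in the 2 young libraries, against 0.08 to 65.8 CPM in WT, and their part in these values was not tested.

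The 2 young DKO libraries lay inside the range of the other 3 or close to it for each member. Tet1 was 7.09 to 9.45 CPM in the young and 3.53 to 11.3 CPM in the others, Uhrf1 100 to 122 CPM in the young and 57.4 to 145 CPM in the others, and Dnmt3b 7.999 to 8.37 CPM in the young and 6.15 to 11.8 CPM in the others. Tet2 was lower in both young libraries (39.0 and 44.3 CPM) than in the others (45.8 to 54.2 CPM), a difference with no test.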
